A study of Mus musculus with 36 samples.

Results

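The 45 genes described here encode the best known machinery for forming and releasing extracellular vesicles (EVs), and they were read from 40205 features counted in EVs and in the neural stem cells (NSCs) that secreted them. They were chosen by name and by role, but with earlier results of these data known. Among them are 3 genes of ESCRT-0, 7 of ESCRT-I, 3 of ESCRT-II, 9 of ESCRT-III and 3 of the VPS4 complex. The others are 6 of the syndecan, syntenin and ALIX route, 2 sphingomyelinases, 6 tetraspanins, 2 flotillins, 2 annexins and 2 SNARE proteins. All 45 were found in the count files.

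EVs of endosomal origin arise when the membrane of an endosome buds inward, and the vesicles leave the cell when that endosome fuses with the plasma membrane. The ESCRT complexes act in order on this membrane: ESCRT-0 gathers ubiquitinated cargo, ESCRT-I and ESCRT-II shape the bud, ESCRT-III cuts its neck, and the ATPase VPS4 takes the ESCRT-III filament apart. Syndecans with their adaptor syntenin, the ceramide made by neutral sphingomyelinases, and tetraspanins provide further routes, and the proteins CD9, CD63, CD81, ALIX, TSG101, syntenin and flotillin are the usual markers by which EV preparations are recognized. The libraries measured the mRNAs of these genes and not the proteins.

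The NSCs came from wild-type C57BL/6J mice (the study's methods name the Ai14 reporter line), from the dorsal telencephalon at gestational day 12.5. Tissue of the fetuses of 1 pregnancy was pooled by sex, so that each of 3 pregnancies (sets 3, 4 and 5) gave 1 female and 1 male neurosphere culture, and the 6 cultures are called 3F, 3M, 4F, 4M, 5F and 5M. Each culture, at passages 7 to 10, was kept for 5 days without ethanol or with ethanol at 120 mg/dL (26 mM) or 320 mg/dL (70 mM). Every culture and dose gave 1 EV library, from vesicles collected by ultracentrifugation and filtration, and 1 cell library, so 12 groups of location, sex and dose held 3 libraries each and 36 libraries were analysed. Libraries of a culture share their founding tissue. The ethanol tests compare doses within cultures, whereas the EV against cell and sex tests take libraries as independent, so that their p-values measure the spread between libraries and not between the 6 cultures.

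EV libraries held 959217 to 5509952 counts (median 3825690) and cell libraries 26566061 to 55282322. The 45 genes took 0.0304 to 0.159% of the counts in EVs (median 0.0939%) and 0.171 to 0.344% in cells (median 0.240%), and 42 to 45 of them had a count in each EV library. Levels are given below as CPM (counts scaled to a common library size, with TMM factors) over all 36 libraries. They are relative to TMM-scaled library sizes and are not plain shares of a library. The factors ran from 0.383 (EV library of 4F at 320 mg/dL) to 1.72 (cell library of 3M at 120 mg/dL). Whether EV and cell ranges overlap was examined on these scaled levels only. The levels say nothing of the amount of RNA per vesicle or cell. In cells, markers of NSCs were high (summed level of 8 genes 2576 to 4103 CPM), whereas those of microglia and leukocytes (highest sum 0.896 CPM), endothelium (2.26 CPM), mesenchyme (2.98 CPM) and erythroid cells (0.0787 CPM) were near 0. Markers of astrocytes (19.7 to 248 CPM), the oligodendrocyte lineage (50.7 to 173 CPM) and neurons (8.53 to 121 CPM) were present in cells. The defining stem cell gene Sox2 was listed at 0 in all 36 libraries.

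Most EV-forming genes were less abundant in EVs than in the cells that made them. Among the usual EV markers Cd9, Cd63, Cd81, Sdcbp and Tsg101 were clearly lower. Pdcd6ip and Flot1 were close to parity with the main settings, but not with all settings. Of the 45 genes, all of which passed the filter on low counts, 28 were lower and 12 higher in EVs by edgeR (adjusted p under 0.05), and 5 did not pass the test. Over all 15281 features tested, 80.5% were called, 42.2% lower and 38.4% higher. The median log2 fold change (EV against cell) was -0.75 over the 45 genes and -0.08 over all features. In 17 of the 45 genes every EV library lay below every cell library, against 14.8% of all features tested, and in 3 genes every EV library lay above, against 9.04%. Of the stem cell markers 5 were lower and 1 higher in EVs, and their summed level was 726 to 1312 CPM there. Markers of other cell types were called higher in EVs in 6 cases, Col1a1 (2.37), Csf1r (2.05), Sox10 (2.02), Kdr (1.83), Pecam1 (1.68) and Mbp (1.32), and lower in 4. Summed levels in EVs had medians of 4.11 CPM for mesenchyme, 3.85 CPM for endothelium and 4.28 CPM for microglia and leukocytes. The highest single EV libraries were at 27.2, 20.4 and 15.1 CPM. In cells the medians were 0.935, 1.18 and 0.654 CPM. The part of these markers in the result was not tested.

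The number of genes called higher depended on scaling. With plain library totals, which put the median of all features at -0.88, 5 genes were higher and 37 lower, and 7 of the called genes changed sign (Chmp3, Flot2, Smpd3, Snf8, Vps36, Vps37c and Ykt6). Library totals called 22.5% of all features higher and 60.7% lower. Without a filter on low counts 5 genes were higher and 35 lower, beside 40.7% and 30.2% of all features. When the 3 doses of each culture were summed, with culture as a block, 5 were higher and 29 lower. The shares of all features were then 34.7% and 35.3%.

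**Figure D1:**
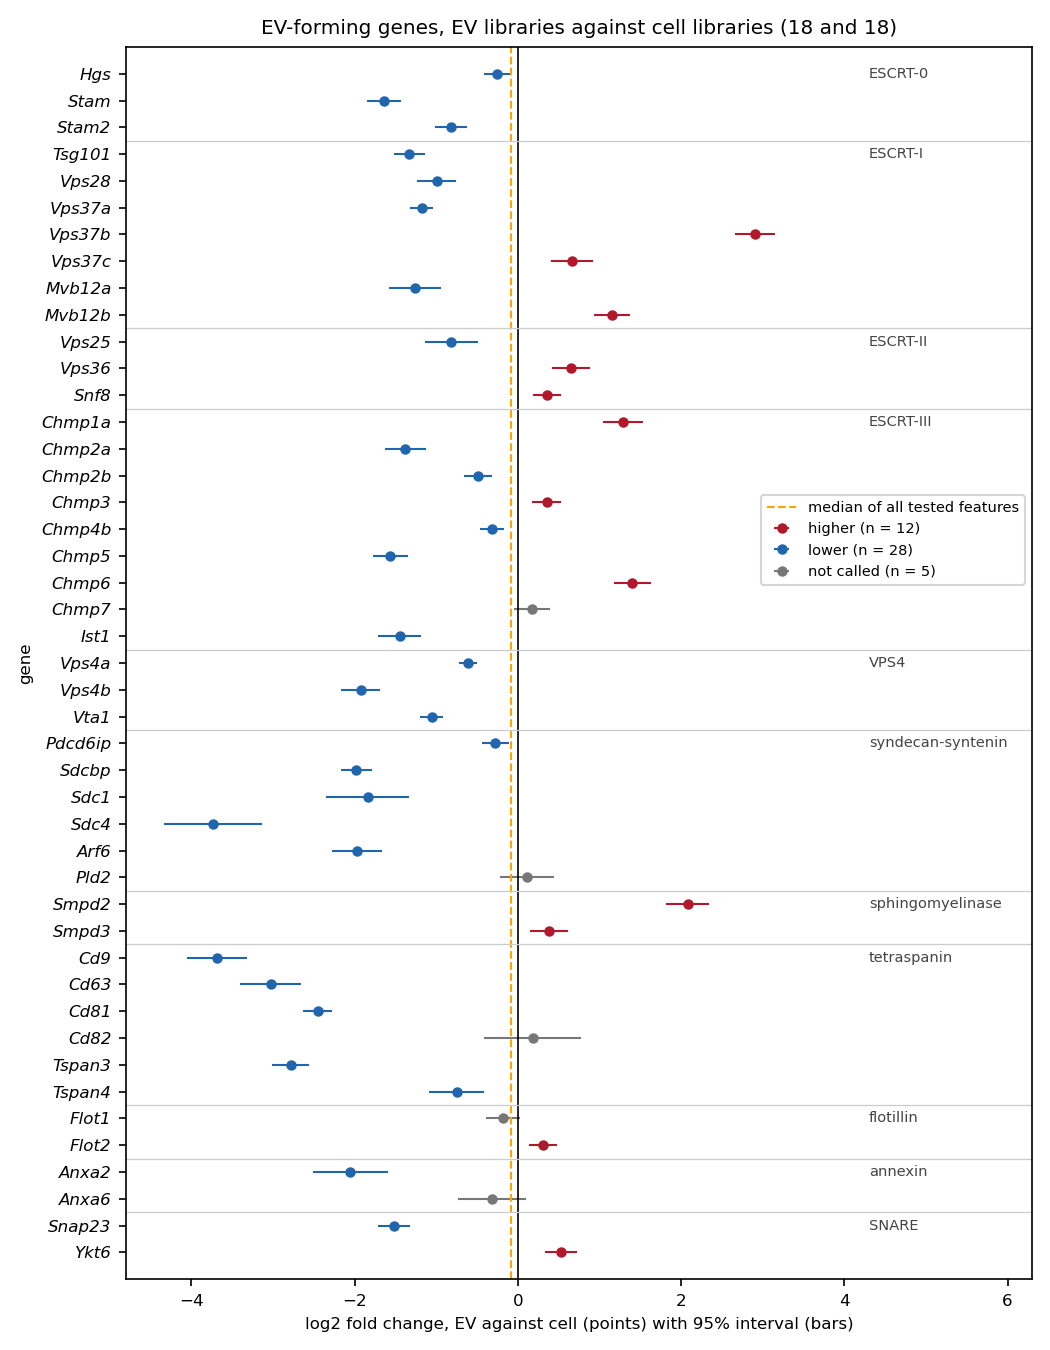
The log2 fold change of each of the 45 genes, EV against cell (18 and 18 libraries), is drawn as a point with its 95% interval, ordered by role. Red points (12) were called higher in EVs, blue points (28) lower and grey points (5) not called. The dashed line is the median of all tested features, -0.08, and Sdc4, Cd9, Cd63, Tspan3 and Cd81 lie farthest to its left.

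Tetraspanins, small membrane proteins with 4 membrane spans that organize patches of cargo in the membrane, were lower in EVs in 5 of 6 genes, with a median log2 fold change of -2.62. Cd9 (chromosome 6, 125437210 to 125471778, minus strand, GRCm39) ranged from 33.1 to 108 CPM in cells (median 56.4) and from 1.66 to 8.67 CPM in EVs (median 4.40). Its highest EV library was thus well below its lowest cell library, and the log2 fold change was -3.68 ± 0.18 (SE, n = 18 and 18 libraries, adjusted p = 1.03e-19), the same direction in 6 of 6 cultures. The EV value rested on 1 to 22 counts per library.

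Cd63 (chromosome 10, 128731528 to 128748709, plus strand), a tetraspanin of late endosomes, had the highest length-scaled level of the 45 genes in cells, at 99.6 to 224 CPM (median 162), and 6.79 to 40.6 CPM in EVs (median 15.5). Cd81 (chromosome 7, 142606314 to 142621672, plus strand) had 88.2 to 180 CPM in cells (median 143) and 18.8 to 41.2 CPM in EVs (median 26.7). Neither gene overlapped between EVs and cells. The log2 fold changes were -3.03 ± 0.18 for Cd63 (adjusted p = 3.47e-17) and -2.45 ± 0.09 for Cd81 (adjusted p = 2.14e-23). Tspan3 (-2.78) and Tspan4 (-0.75) were lower too, Tspan3 without overlap. Cd82 was near the limit of detection, with 0 to 11 counts in EVs and 13 to 131 counts in cells, and was not called (0.18, 95% interval -0.41 to 0.78).

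**Figure D2:**
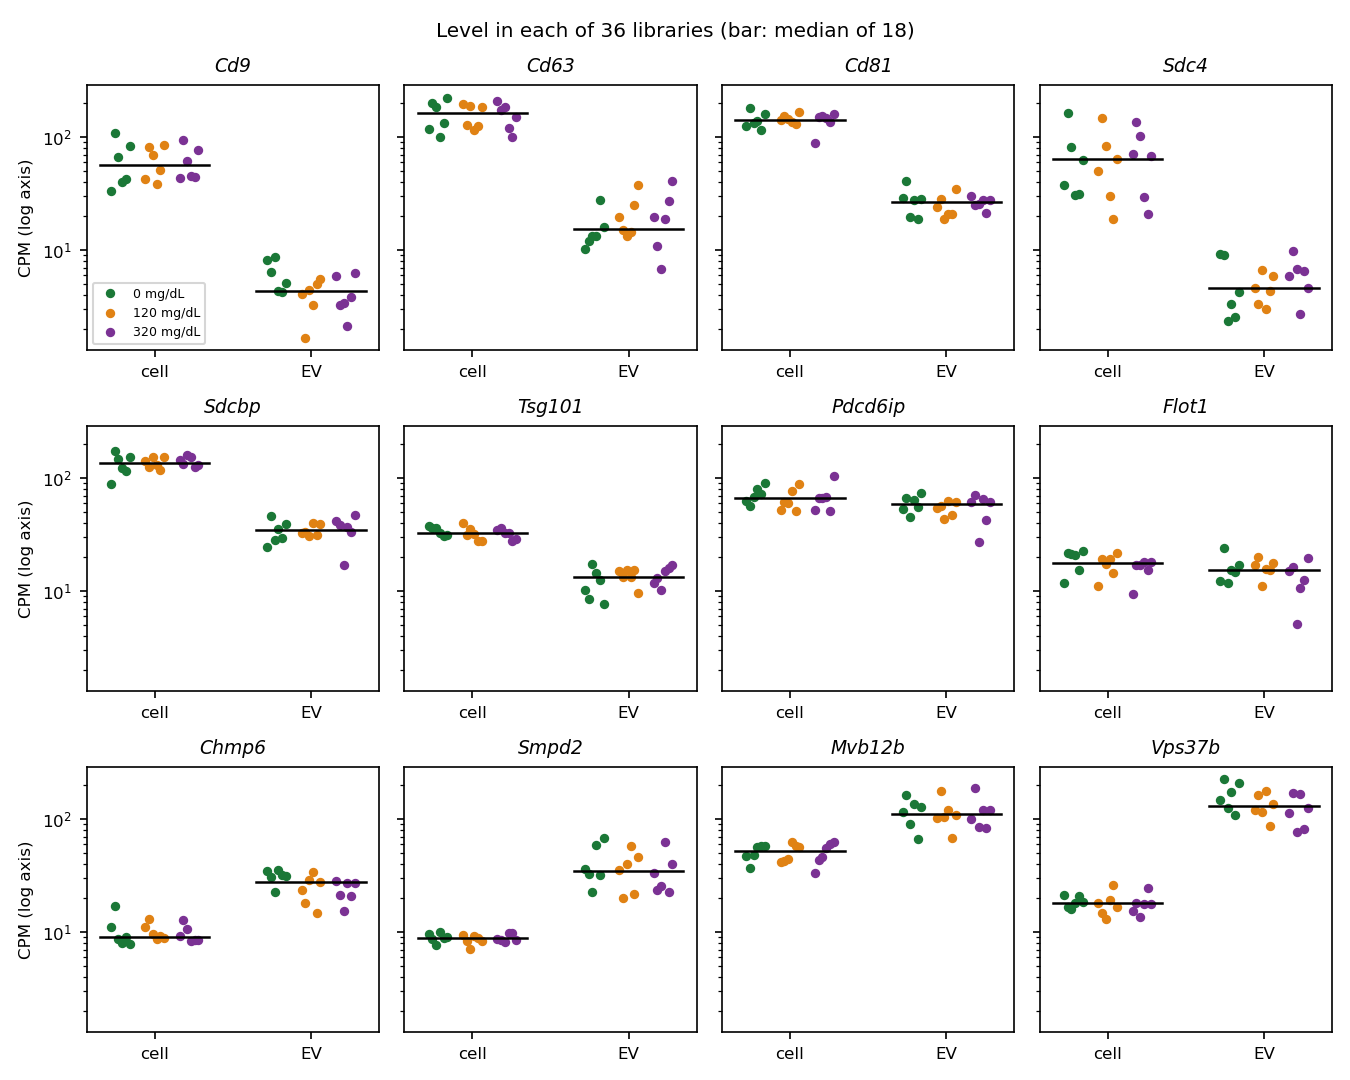
The level of 12 genes in each of the 36 libraries (CPM on a log axis), with cells on the left and EVs on the right of each panel, is coloured by ethanol dose, and the bar is the median of 18 libraries. Cd9, Cd63, Cd81, Sdc4, Sdcbp and Tsg101 do not overlap between locations and are lower in EVs, Vps37b, Smpd2 and Mvb12b do not overlap and are higher.

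In the syndecan, syntenin and ALIX route, in which the tail of a syndecan binds syntenin and syntenin recruits ALIX, 5 of 6 genes were lower in EVs. Sdc4, a syndecan of the cell surface (chromosome 2, 164266025 to 164285807, minus strand), had 18.8 to 164 CPM in cells (median 63.7) and 2.36 to 9.83 CPM in EVs (median 4.63). This was the largest difference of the 45 genes, -3.73 ± 0.30 on the log2 scale (adjusted p = 6.17e-14, lower in 6 of 6 cultures), on 2 to 30 counts per EV library. Sdcbp, which encodes syntenin (chromosome 4, 6365547 to 6408848, plus strand), had 89.2 to 174 CPM in cells (median 137) and 17 to 46.9 CPM in EVs (median 34.5). The groups were again apart, with a log2 fold change of -1.98 ± 0.09 (adjusted p = 1.90e-20). Sdc1, also a syndecan, fell by 1.84 ± 0.25, and Arf6, a small GTPase that acts with phospholipase D2 on syntenin vesicles, fell by 1.97 ± 0.15.

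Pdcd6ip, which encodes ALIX (chromosome 9, 113480803 to 113537380, minus strand), behaved unlike its partners. It had 51.4 to 104 CPM in cells (median 66.9) and 27.2 to 73.7 CPM in EVs (median 58.7), so that the ranges overlapped widely. Its log2 fold change of -0.27 ± 0.08 passed the test (adjusted p = 0.00319) but 2 of 6 cultures went the other way, and the value became 0.19 when every library was thinned to the smallest total. Without pregnancy 4 (-0.16) or 5 (-0.15) it did not pass. Over 13 settings its value ranged from -1.05 to 0.19, and it was called in 9 of them. Pld2, the phospholipase D2 gene, was as abundant in EVs (2.15 to 12.2 CPM) as in cells (2.64 to 12.6 CPM) and was not called (0.11, 95% interval -0.22 to 0.45).

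ESCRT-0, the complex that sorts ubiquitinated cargo, was lower in EVs in 3 of 3 genes, from -0.26 for Hgs, its core subunit, to -1.64 for Stam, though Hgs turned to 0.11 with thinned counts. In ESCRT-I, 4 of 7 genes were lower and 3 higher. Tsg101, its founding subunit and a common EV marker (chromosome 7, 46528034 to 46569863, minus strand), had 27.7 to 39.8 CPM in cells (median 32.6) and 7.75 to 17.3 CPM in EVs (median 13.3). The groups did not overlap, and the log2 fold change was -1.33 ± 0.09 (adjusted p = 1.70e-15). Vps28, another core subunit, was lower too (-0.99).

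The remaining ESCRT-I subunits, VPS37 and MVB12, are each encoded by several paralogs that can take the same place in the complex, and these paralogs differed in direction. Vps37b (chromosome 5, 124142013 to 124170429, minus strand) had 13 to 26.4 CPM in cells (median 17.9) and 76.4 to 229 CPM in EVs (median 131). Its lowest EV library was above its highest cell library, and the log2 fold change of 2.91 ± 0.12 (adjusted p = 9.87e-22) was the highest of the 45 genes, positive in 6 of 6 cultures. Mvb12b (1.15 ± 0.11) and Vps37c (0.66 ± 0.13) were higher in EVs as well, whereas their paralogs Mvb12a (-1.26 ± 0.16) and Vps37a (-1.18 ± 0.07) were lower. Mvb12b did not overlap between EVs (66.3 to 188 CPM) and cells (33.6 to 63.4 CPM).

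In the annotation, 62.8% of the exonic bases of Vps37b lie opposite exons of other genes, Hip1r among them, and whether reads were counted by strand is not given in the sources used here. The libraries were made with a stranded kit. Hip1r itself had 8.87 to 45.8 CPM in EVs and 5.00 to 9.41 CPM in cells, with a log2 fold change of 0.98 ± 0.16. The part of reads from opposite genes in the Vps37b level was not tested. Reads shared by opposite genes also cannot be told apart for Vps37a (50.1% of bases), Vps4a (37.7%), Snf8 (23.5%) and Arf6 (19.4%), and the exons of Vps25 lie entirely within those of Ramp2 on the same strand.

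ESCRT-II, the bridge to ESCRT-III, was mixed: Vps36 (0.65) and Snf8 (0.36) were higher in EVs, both with the opposite sign under library totals, and Vps25 (-0.82) was lower. ESCRT-III, whose subunits polymerize into the filament that cuts the bud, was mixed as well, with 3 of 9 genes higher, 5 lower and 1 not called. Chmp6, the subunit that links ESCRT-II to the filament (chromosome 11, 119804250 to 119815490, plus strand), had 7.79 to 16.9 CPM in cells (median 9.11) and 14.6 to 35.4 CPM in EVs (median 27.6). The lowest EV library fell within the range of the cells, and the log2 fold change was 1.40 ± 0.11 (adjusted p = 6.79e-14, higher in 6 of 6 cultures). Chmp1a, a regulatory subunit, rose by 1.29 ± 0.12. Chmp5 (-1.56), Ist1 (-1.45) and Chmp2a (-1.38) were lower by a like amount. Chmp4b, the main subunit of the filament, had 57.2 to 83.5 CPM in cells and 39.0 to 82.0 CPM in EVs and differed little (-0.32 ± 0.08, and 0.05 with thinned counts), and Chmp7 was not called (0.17, 95% interval -0.05 to 0.40).

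All 3 genes of the VPS4 complex were lower in EVs without overlap: Vps4b (-1.93), its cofactor Vta1 (-1.06) and Vps4a (-0.61). Vps4a had 26.2 to 30.0 CPM over the 18 cell libraries and 14.9 to 22.7 CPM over the 18 EV libraries.

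Both neutral sphingomyelinase genes were higher in EVs, of which Smpd3 turned to -0.38 under library totals. Smpd2 (chromosome 10, 41361638 to 41366481, minus strand), which encodes neutral sphingomyelinase 1, had 7.15 to 10.0 CPM in cells (median 8.83) and 19.9 to 68.8 CPM in EVs (median 34.6). The groups were apart and the log2 fold change was 2.08 ± 0.13 (adjusted p = 8.76e-17, higher in 6 of 6 cultures). Smpd3, for the neutral sphingomyelinase 2 whose ceramide is best known for driving vesicle budding, differed far less: its log2 fold change was 0.38 ± 0.11, with 3.39 to 11.8 CPM in EVs and 5.00 to 7.56 CPM in cells.

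The flotillins, scaffold proteins of lipid rafts, were near parity. Flot1 (chromosome 17, 36134075 to 36147515, plus strand) had 9.52 to 22.6 CPM in cells (median 17.7) and 5.09 to 23.9 CPM in EVs (median 15.3), the ranges covered each other, and it was not called (-0.18, 95% interval -0.39 to 0.03), though it was called lower in 4 of 13 settings (without pregnancy 3, with library totals, without a filter and with a filter set by the whole design), and the value ranged from -0.97 to 0.25 and turned positive without pregnancy 4 and with thinned counts. Flot2 was higher in EVs by 0.31 ± 0.08. Anxa2, an annexin that binds membrane lipids in the presence of calcium, was lower (-2.05 ± 0.23), while Anxa6 was not called (-0.32, 95% interval -0.74 to 0.10). Of the SNARE genes, whose products carry out membrane fusion, Snap23 was lower (-1.52) without overlap and Ykt6 higher (0.53) with overlap.

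Between genes, levels are compared here per kilobase of exon. In cells they spanned a ratio of 153 from Cd82 to Cd63, with a median of 10.0 CPM per kb, and in EVs a ratio of 46.7, with a median of 8.03 CPM per kb. The 4 highest genes in cells were Cd63 (118 CPM per kb), Cd81 (92.6), Anxa2 (63.3) and Arf6 (50.2). In EVs the highest were Vps37b (39.9 CPM per kb), Chmp4b (33.3) and Chmp1a (27.0), and Vps37b stood at rank 39 in cells and rank 1 in EVs. Genes high in cells tended to be those lower in EVs: over the 45 genes the median cell level and the EV-to-cell log2 fold change had r = -0.57 (Spearman's rho -0.60), and over all 15281 tested features r = -0.51. These correlations are across genes of the same 36 libraries, genes are not independent replicates, and the cell level enters both axes.

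The genes called higher and lower also differed in base composition and not clearly in length. The 12 higher genes had a median GC content of 56.6% (46.1 to 58.5%) and a median canonical transcript length of 2647 bases, and the 28 lower genes had 49.2% (40.0 to 60.6%) and 2120 bases. Over the 45 genes, GC content and log2 fold change had r = 0.39 and rho 0.45, and log2 length had r = 0.15. The ranges overlapped, and whether GC content has a part in the measured levels was not tested.

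**Figure D3:**
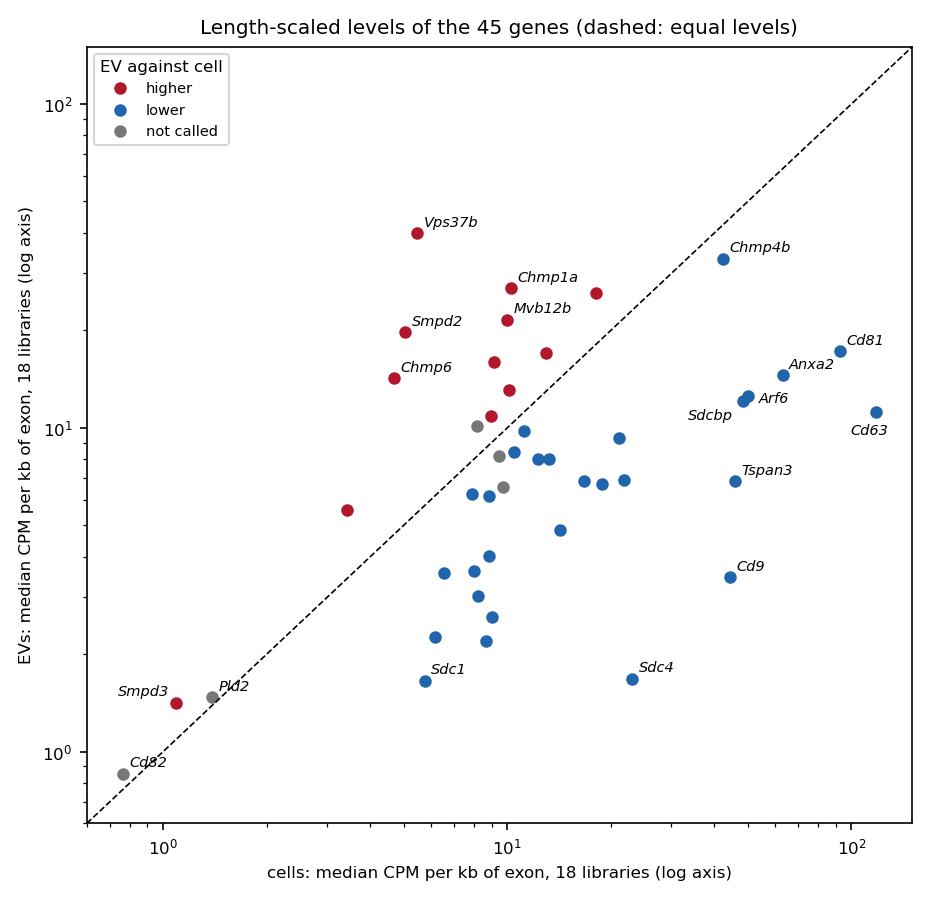
The median level of each of the 45 genes in 18 cell libraries (x axis) and 18 EV libraries (y axis) is plotted as CPM per kb of exon on log axes, coloured by the EV against cell call. The dashed line marks equal levels. Cd63 has the highest level in cells at 118 CPM per kb and lies far below the line, and Vps37b has the highest level in EVs at 39.9 CPM per kb.

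Of 74 other genes of these pathways, 68 could be tested. In EVs 21 of them were called higher and 34 lower, with a median log2 fold change of -0.30. Among all 15281 features tested, 38.4% were called higher and 42.2% lower. The lists below were not tested against these shares, and the genes named were among those with the lowest p in their list. Among 22 tested ESCRT partners, 6 were higher and 11 lower. Ndfip1, an adaptor of NEDD4 ubiquitin ligases, fell by 2.84 ± 0.10, and Arrdc1, an arrestin that buds vesicles from the plasma membrane through TSG101, rose by 2.68 ± 0.19. Among 15 other tetraspanins, 5 were higher and 7 lower, and Tspan6 showed the largest fall, -4.21 ± 0.14, from a median of 61.2 CPM in cells to 3.06 CPM in EVs. Of 16 further syndecan, lipid and annexin genes, 3 were higher and 9 lower, Sdc2 (-2.47) and Anxa7 (-2.30) among the lower. Of 15 SNARE and release genes, 7 were higher and 7 lower. Rab27a, a small GTPase that docks endosomes at the plasma membrane, was among the higher ones (1.90 ± 0.16), with Vamp7 (-1.94) and Rab11a (-1.65) among the lower.

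Ethanol was compared with control within each culture, to ask whether the cells changed the expression of their vesicle machinery with dose. In cells, 0 of 45 genes passed the test at 120 mg/dL and 0 of 45 at 320 mg/dL, where 0% and 0.0393% of 17792 features were called, or 0 and 7 features. As a slope over the 3 doses, 0 of 45 genes and 0.0843% of features passed. At an unadjusted p under 0.05 by edgeR, 1, 4 and 4 of the 45 genes came out in these tests, beside 2.5%, 8.57% and 9.22% of all features. DESeq2 called 0, 0 and 1 of the genes, beside 0.0131%, 0.598% and 0.687% of features. Both doses were set against the same control libraries. The medians of the 45 log2 fold changes were -0.03 at 120 mg/dL and -0.02 at 320 mg/dL, beside -0.01 for all features at both doses.

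The intervals were narrow. At 320 mg/dL the log2 fold changes in cells ran from -0.24 to 0.32, the 95% intervals of all 45 genes lay within 1 and those of 43 within 0.5 on either side of 0. On simulated data the same test recovered 142 of 200 features changed 2-fold and 70 of 200 changed 1.5-fold at 320 mg/dL in cells. The adjusted p depends on how many features change, and the real comparison called only 7. The share recovered may therefore be too high for a single gene in these data. Smaller changes may have been missed at this depth.

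The gene with the lowest p in cells was Flot1, which did not pass. It had 11.8 to 22.6 CPM without ethanol (median 21.0), 11.2 to 21.9 CPM at 120 mg/dL (median 18.3) and 9.52 to 18.1 CPM at 320 mg/dL (median 17.1). The ranges overlap between doses, but each culture was lower than its own control at both doses. In 5F the level at 320 mg/dL (15.35 CPM) was nearly that of its control (15.38 CPM). The log2 fold change was -0.13 ± 0.06 at 120 mg/dL (adjusted p = 1.00) and -0.24 ± 0.06 at 320 mg/dL (adjusted p = 0.265), and the slope was -0.24 ± 0.06 per 320 mg/dL (adjusted p = 0.191 by edgeR and 0.0448 by DESeq2). Next by p were Anxa6 at 120 mg/dL (-0.14 ± 0.08, adjusted p = 1.00) and Pld2 at 320 mg/dL (0.27 ± 0.09, adjusted p = 0.399). Pld2 had 2.64 to 8.35 CPM without ethanol and 3.70 to 12.6 CPM at 320 mg/dL, and was higher in 5 of 6 cultures.

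In EVs, 44 of the 45 genes could be tested (Cd82 did not pass the filter), and 0 passed at either dose, where 0.00842% and 0.0842% of 11880 features were called, 1 and 10 features. At an unadjusted p under 0.05, 3 of the 44 genes at 120 mg/dL and 8 at 320 mg/dL came out, beside 6.26% and 11.9% of all features. DESeq2 gave 15 and 22 of the genes an adjusted p and called 0 and 1 of them. Of all features with such a value it called 0.299% and 5.42%. Intervals were wider than in cells: at 320 mg/dL those of 42 genes lay within 1 and those of 20 within 0.5 of 0 on the log2 scale. On simulated data, 127 of 200 2-fold changes and 3 of 200 1.5-fold changes were recovered at 320 mg/dL, with the same limit as in cells.

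Vps37b, the gene highest in EVs, had the lowest p in EVs at 320 mg/dL. It had 109 to 229 CPM without ethanol (median 160), 86.3 to 179 CPM at 120 mg/dL (median 129) and 76.4 to 171 CPM at 320 mg/dL (median 119). The ranges overlapped, and at 320 mg/dL each of the 6 cultures was below its control. The log2 fold change was -0.44 ± 0.12 at 320 mg/dL, which did not pass by edgeR (adjusted p = 0.143) and passed by DESeq2 (0.00717). DESeq2 called 5.42% of the 4924 features to which it gave an adjusted p in this comparison. At 120 mg/dL the lowest p was that of Pld2, which had 2.15 to 6.36 CPM without ethanol, 4.91 to 12.2 CPM at 120 mg/dL and 5.16 to 9.63 CPM at 320 mg/dL, on 4 to 26 counts per library. Pld2 was higher than control in 6 of 6 cultures at both doses (0.80 ± 0.24, adjusted p = 0.693, and 0.70 ± 0.24, adjusted p = 0.230). Chmp6 was lower at 120 mg/dL in 5 of 6 cultures (-0.40 ± 0.15, adjusted p = 0.791).

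**Figure D4:**
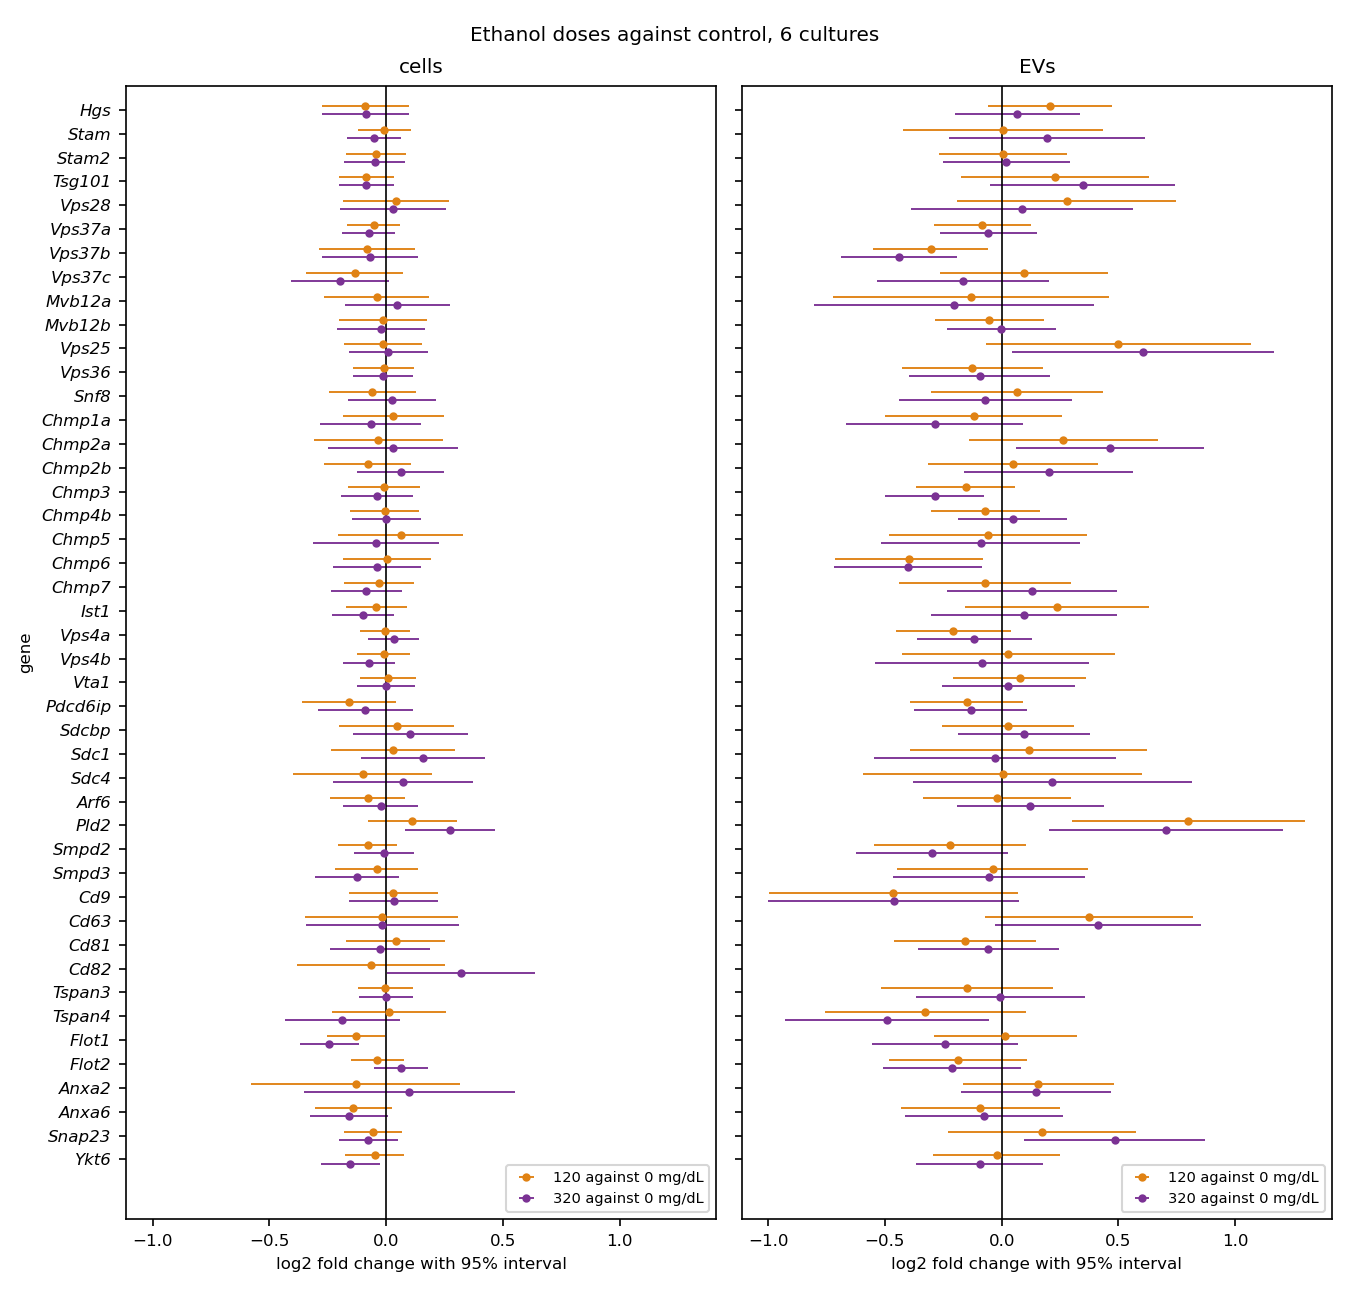
Points are the log2 fold changes of the genes against control at 120 mg/dL (orange) and 320 mg/dL (purple) in cells (left) and in EVs (right), with 95% intervals, in 6 cultures. No gene passed the edgeR test in any of these comparisons. In cells the values at 320 mg/dL run from -0.24 to 0.32, in EVs those at 320 mg/dL run from -0.49 (Tspan4) to 0.70 (Pld2), and Cd82 was not tested in EVs.

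Whether ethanol moved a gene differently in EVs and in cells was tested as a change of the EV-to-cell difference. Of the 45 genes, 0 passed at 120 mg/dL and 0 at 320 mg/dL, where 0.0107% and 0% of 18728 features were called. At an unadjusted p under 0.05, 3 and 2 genes came out, beside 3.35% and 5.37% of features. DESeq2 called 0 at both doses, beside 0.00644% and 2.17% of features (at 320 mg/dL it gave 12 of the genes an adjusted p). The lowest p belonged to Pld2 (0.66 ± 0.27) and Chmp6 (-0.47 ± 0.20) at 120 mg/dL, both with an adjusted p of 1.00, and to Snap23 (0.54 ± 0.21, adjusted p = 0.853, in 6 of 6 cultures) and Vps37b (-0.41 ± 0.19, adjusted p = 0.925) at 320 mg/dL. Of the 74 other pathway genes, 0 passed in cells (71 tested) or in EVs (59 tested) at either dose.

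Females and males were compared within each location over the 3 doses. In cells, 0 of 45 genes were higher and 2 lower in females, where 5.83% of 17052 features were called, 3.2% higher and 2.63% lower. Pld2 (chromosome 11, 70430857 to 70448938, plus strand) had 2.64 to 5.64 CPM in the 9 female libraries (median 4.77) and 5.25 to 12.6 CPM in the 9 male ones (median 5.91). The ranges touched, with a log2 fold change of -0.76 ± 0.21 (female against male, adjusted p = 0.0401, lower in 3 of 3 pregnancies). Flot1 had 9.52 to 21.1 CPM in females (median 15.4) and 17.1 to 22.6 CPM in males (median 19.4), with overlap, and differed by -0.46 ± 0.13 (adjusted p = 0.0477, lower in 3 of 3 pregnancies). This test takes the 3 libraries of a culture as independent. With the doses of each culture summed 0 of 45 genes passed, beside 0.0334% of features. Without pregnancy 3, 4 or 5, 4, 4 and 0 genes passed, beside 12.3%, 6.40% and 1.17% of features. With pregnancy as a block 1 was higher and 8 lower, beside 7.00% and 10.3% of features.

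In EVs, 0 of 44 genes were higher and 3 lower in females, where 11.1% of 11037 features were called, 7.03% higher and 4.06% lower. Vps37b had 76.4 to 147 CPM in female EVs (median 113) and 125 to 229 CPM in male EVs (median 171). Mvb12b had 66.3 to 116 CPM and 108 to 188 CPM, and Ykt6 had 34.9 to 72.0 CPM and 66.2 to 93.4 CPM in females and males. All 3 overlapped slightly and were lower in the female culture of 3 of 3 pregnancies. The log2 fold changes were -0.59 ± 0.13 for Vps37b (adjusted p = 0.0146), -0.55 ± 0.15 for Mvb12b (adjusted p = 0.0313) and -0.53 ± 0.14 for Ykt6 (adjusted p = 0.0304). With the doses of a culture summed or with library totals 0 of the genes passed, beside 0% and 2.84% of features. Without pregnancy 3, 4 or 5, 10, 1 and 0 passed, beside 23.1%, 3.70% and 0.0203% of features. With pregnancy as a block 1 was higher and 7 lower, beside 14.2% and 12.9% of features. In cells these 3 genes were not called, with log2 fold changes of 0.06, -0.16 and -0.03. Summed astrocyte markers were 22.6 to 58.7 CPM in female and 14.7 to 139 CPM in male EVs, and 19.7 to 93.2 CPM in female and 48.4 to 248 CPM in male cells. Oligodendrocyte lineage markers went the other way in cells (median 135 CPM in females and 63.5 CPM in males). In EVs the medians of females and males were 7.71 and 2.18 CPM for endothelial markers and 8.61 and 3.35 CPM for mesenchymal markers. Their part in the sex differences was not tested.

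Whether the sexes responded differently to 320 mg/dL ethanol in cells was tested as an interaction, and 0 of 45 genes passed, beside 0% of 18725 features. At an unadjusted p under 0.05, 6 genes came out, beside 18% of all features. DESeq2 gave 16 of the genes an adjusted p and called 0, beside 3.58% of the 3300 features with such a value. The lowest p belonged to Vps37c (-0.50 ± 0.16, adjusted p = 0.219) and Chmp5 (0.52 ± 0.21, adjusted p = 0.241).

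Levels also differed between the 6 cultures, which is given as a description without a test. The ratio of the highest to the lowest culture mean in cells was 1.03 to 6.29 over the 45 genes (median 1.40). It was over 2 for 10 genes and over 3 for 6 genes: Sdc4, Anxa2, Sdc1, Cd82, Pld2 and Anxa6. Sdc4 had means over 3 doses of 52.7 CPM in 3F, 149 in 3M, 89.3 in 4F, 30.1 in 4M, 23.7 in 5F and 65.2 in 5M. Anxa2 had 64.6, 137, 102, 51.7, 27.1 and 155 CPM in that order. Cd9 had 39.6, 94.2, 65.9, 41.5, 46.4 and 81.4 CPM. In each of the 3 genes 3M and 5M were above the female culture of their pregnancy and 4M below it.

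Over the 18 cell libraries, the gene most like Sdc4 among the 45 was Arf6 (r = 0.94 of log2 CPM), followed by Anxa2 and Sdc1 (both 0.87). The genes most like Cd9 were Anxa6 (r = 0.83) and Sdc4 (0.77). These 18 libraries are 6 cultures at 3 doses, so the likeness is mostly one between 6 cultures. Summed astrocyte markers in cells were 27.5 CPM in 3F, 210 in 3M, 76.8 in 4F, 51.7 in 4M, 81.5 in 5F and 207 in 5M, and were highest in 3M and 5M, as Anxa2 and Cd9 were, while Sdc4 was highest in 3M and 4F. Summed oligodendrocyte lineage markers were lowest in 3M (62.6 CPM) and 5M (58.6 CPM) and lay between 93.4 and 157 CPM in the other cultures. The part of either in the differences between cultures was not tested, and in such bulk libraries more cells of a type and more RNA per cell cannot be told apart. In EVs the culture means of Sdc4 lay between 3.02 and 7.41 CPM and those of Anxa2 between 14.1 and 26.7 CPM.

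At the other end, 24 of the 45 genes had culture means within a ratio of 1.5 in cells, and Vps4a (27.5 to 28.5 CPM), Chmp5 (30.8 to 32.8 CPM) and Chmp3 (33.2 to 35.9 CPM) were nearly equal in all 6 cultures. In EVs the median ratio was 1.82 and 10 genes were within 1.5, with the counting error of shallower libraries included. Vps25, with 0 to 40 counts per EV library, had the widest ratio there, 6.3, and was followed by Anxa6 (5.72), whose EV means of 7.06 CPM in 3F and 40.3 CPM in 3M followed the cell means of 12.3 and 40.9 CPM.

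**Figure D5:**
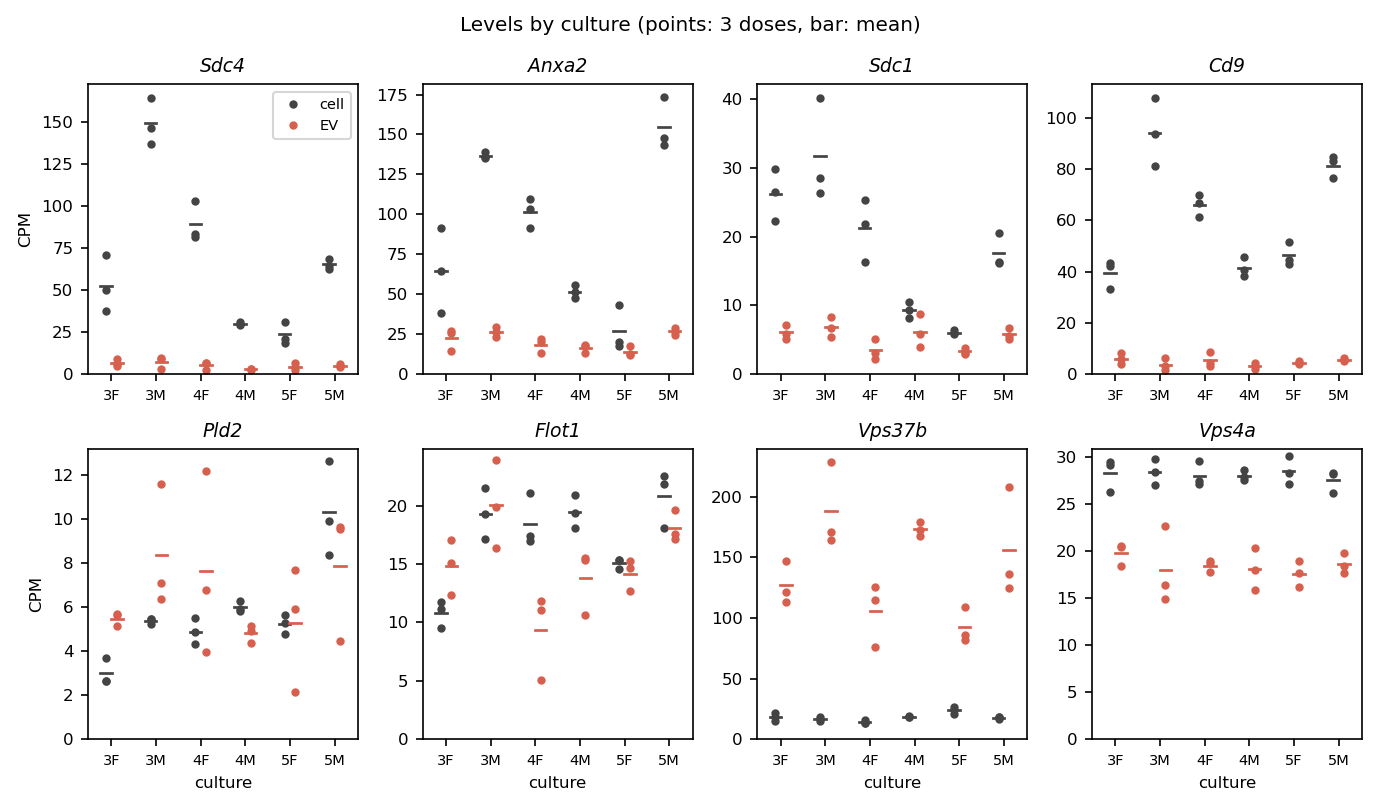
The level (CPM) of 8 genes in each library is shown by culture (3F to 5M), with 3 doses as points and their mean as a bar, for cells (dark) and EVs (red). In cells the culture means of Sdc4, Anxa2 and Cd9 differ (Sdc4 from 23.7 to 149 CPM). Doses spread widely in some cultures (Anxa2 in 3F from 38.3 to 91.3 CPM). The culture means of Vps4a in cells stay between 27.5 and 28.5 CPM. In EVs the mean of Vps37b is lower in each female culture than in the male culture of its pregnancy.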

How the data were processed

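RNA of 18 EV and 18 cell libraries was prepared with a stranded total RNA kit after removal of ribosomal RNA. Per the labels and the study's methods, the authors trimmed reads with Trimmomatic, aligned them to mm39 with STAR and counted them per gene with HTSeq, and deposited raw counts, which are not normalized. Whether counting used strand is not given in the sources used here. Samples were grouped by location, sex and dose from their labels.

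Counts were tested with edgeR 4.0.16 (R 4.3.3, quasi-likelihood F test, TMM scaling, filterByExpr with a minimum count of 10 and a minimum total of 15, set on the groups compared), over all features that passed, with Benjamini-Hochberg adjustment and a threshold of 0.05. EVs were compared with cells over 36 libraries, ethanol doses with control within location with culture as a block, and females with males within location. Standard errors and intervals come from the F statistic. Where counts are low, edgeR may give a larger p than they imply. Gene positions and exon lengths came from the GENCODE annotation of GRCm39, matched by symbol (45 of 45 genes). The steps were tested on simulated data with 200 changed features.

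The pairing of libraries within a culture comes from the design, since its doses share their pooled tissue. Deviations of cell libraries at 120 and 320 mg/dL correlated with those of their own control at a median r of 0.702 and 0.690, and those of EV libraries at 0.175 and 0.319. EV and cell libraries of a culture and dose correlated at a median r of 0.0664. Female and male cultures of a set share a pregnancy, and their deviations had a median r of -0.018 in cells and -0.160 in EVs. Deviations were taken from the mean of each location and dose, which holds both libraries of such a pair. That alone pulls this r below 0, so it cannot be set beside the other values.

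The 45 genes, the gene lists and the markers were chosen with earlier results of these data known. Genes named with full values were the 7 usual EV markers, the 3 largest changes in each direction between EVs and cells, every gene past the threshold in the other comparisons, and, where none passed, the 2 with the lowest p. Other genes were named after their values were seen. Alternatives were other scalings and filters, DESeq2 1.42.0, thinned counts, summed doses, blocks, and each pregnancy left out. A filter set by the whole design was added after seeing the data.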

Additional observations from a re-analysis of the deposited data

Results flagged for a closer look

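With 3 female and 3 male cultures, 135 pairs of a gene and an ethanol comparison were examined for changes of opposite sign in all cultures of the 2 sexes, and 5 were found, or 3.70%. Over the 15281 features tested between EVs and cells the share was 3.75% of pairs, and 3.70% is near the background and is not a result about these genes. The difference between the sexes was not tested in any of them. In cells at 120 mg/dL the mean female change minus the mean male change was -0.36 on the log2 scale for Hgs, the core subunit of ESCRT-0, and 0.55 for Vps28 of ESCRT-I. In EVs at 320 mg/dL it was -0.61 for Vps28. Snf8, a subunit of ESCRT-II, gave 0.63 in EVs at 120 mg/dL and 0.85 at 320 mg/dL, and both values share the same control libraries.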

How the results depend on the processing

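The numbers of genes called in either direction were set against alternatives. Of these, 91 stayed on the same side or within 1.5 times, and 17 did not, all of them in sex or ethanol tests. The number called higher in EVs than in cells alone moved further, from 12 to as few as 5. The number of genes called between female and male cells was 2, and became 6 with DESeq2, 4 with library totals, 0 with the doses of a culture summed and 9 with pregnancy as a replicate block, and 0 to 4 when a pregnancy was left out. In EVs it was 3, and became 5 with DESeq2, 0 with library totals, 6 without a filter on low counts, 0 with doses summed and 8 with the block, and 0 to 10 when a pregnancy was left out. The block reflects that both cultures of a set come from 1 pregnancy. Like the main fit, it still takes the 3 dose libraries of a culture as independent. DESeq2 called 1 gene in the slope on dose in cells and 1 in EVs at 320 mg/dL, beside 0.687% and 5.42% of features. The cause of these changes was not tested.

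Between EVs and cells, 12 genes were higher and 28 lower, and 12 and 29 with EV and cell libraries paired as a replicate block. Library totals gave 5 and 37, no filter on low counts 5 and 35, and summed doses 5 and 29. A filter set by the whole design gave 7 and 30, beside 38.1% and 43.7% of all features. Control libraries alone gave 7 and 26, beside 30.0% and 33.8%. With thinned counts, 12 were higher and 20 lower of 40 tested, beside 39.7% and 39.3%. The share of all called features that were higher was 47.6%, and became 27.0% with library totals, 57.4% without a filter and 72.9% with DESeq2, which moved the median of all features to -0.88, 0.46 and 1.73. With thinned counts 3 genes called lower turned to positive values that did not pass, Pdcd6ip (0.19), Hgs (0.11) and Chmp4b (0.05). Depth limits the EV values: Mvb12a and Vps25 were at 0 in 1 EV library each and Cd82 in 3.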
